A study of Mus musculus with 37 samples.

Results

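The genes described here are 9 enzymes that carry pyruvate into and around the tricarboxylic acid (TCA) cycle in mitochondria: Pdha1, Pdhb, Dlat and Dld of the pyruvate dehydrogenase (PDH) complex, Pcx (pyruvate carboxylase), and Cs, Idh3a, Ogdh and Mdh2 of the cycle itself. They were chosen by gene symbol, with earlier results of these data known. All 22 probe sets that the platform's annotation assigns to them were used, out of 22690 probe sets and 12393 genes on the array. The samples were thoracic mammary glands, left and right pooled for each animal, from female C57BL/6 mice that were 9 weeks old at the start and were followed for 6 weeks. In CR+EX, 9 mice were under 30% calorie restriction with a running wheel. In CR, 9 mice were under the same restriction without a wheel. In AL+EX, 9 mice ate ad libitum with a wheel, and in AL, 10 mice ate ad libitum without one. Restricted mice received 70% of the calories of AL mice and the full amount of the other nutrients. Every animal had its own Affymetrix array, 37 in all. All mice were of 1 strain and 1 sex and no group carried a genetic change.

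Pyruvate from glycolysis has a pair of main fates in the mitochondrion. The PDH complex oxidises it irreversibly to acetyl-CoA: the E1 enzyme, a tetramer of the Pdha1 and Pdhb proteins, removes carbon dioxide, the lipoate arm of E2 (the Dlat protein) carries the acetyl group to coenzyme A, and E3 (the Dld protein) reoxidises the lipoate. Pyruvate carboxylase, a biotin enzyme, instead adds carbon dioxide to make oxaloacetate, which refills the cycle. In fat and in the lactating gland, the citrate formed from both products can leave the mitochondrion and supply carbon for fatty acid synthesis, and Pcx is known as an abundant, differentiation-dependent gene of adipocytes.

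The glands held several tissues. Signals of the adipocyte genes Adipoq (12687 to 30960 over the arrays) and Fabp4 (15561 to 51972) were high, as were those of the skeletal muscle gene Acta1 (14752 to 64425) and of the brown fat gene Ucp1 (1211 to 31661), while the epithelial genes Krt8 (596 to 6801) and Krt18 (824 to 7221) were lower. The mean log2 level of 10 B lymphocyte markers was high on 13 arrays (4 AL, 4 AL+EX, 3 CR and 2 CR+EX) and included all 8 arrays of the highest animal numbers. The Gapdh 3′ to 5′ signal ratio, a sign of RNA integrity, was above 2 on 5 arrays (2 CR+EX and 3 AL). Animal numbers fell into 4 runs of 8, 11, 10 and 8 arrays. Each run held all 4 groups, in each run the numbers went from AL through AL+EX and CR to CR+EX, and place in a run cannot be told apart from group. In whole tissue, fewer cells of a type and less RNA per cell cannot be told apart either.

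Under food restriction averaged over both wheel states (18 restricted against 19 unrestricted animals), Dlat, Pcx and Pdhb rose. The other 6 genes had positive differences that did not pass. Thus 3 of the 9 genes were called higher, against 4.19% of the 9295 genes tested, and 0 of 9 lower, against 4.56%. The median difference of the 9 was 0.171 on the log2(signal + 16) scale, beside -0.0237 over all genes tested, of which 44.8% were above 0. A call here means an adjusted p under 0.05 by limma with Benjamini-Hochberg adjustment over all 9295 genes, and a value after ± is the standard error of that fit unless SD is written.

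**Figure D1:**
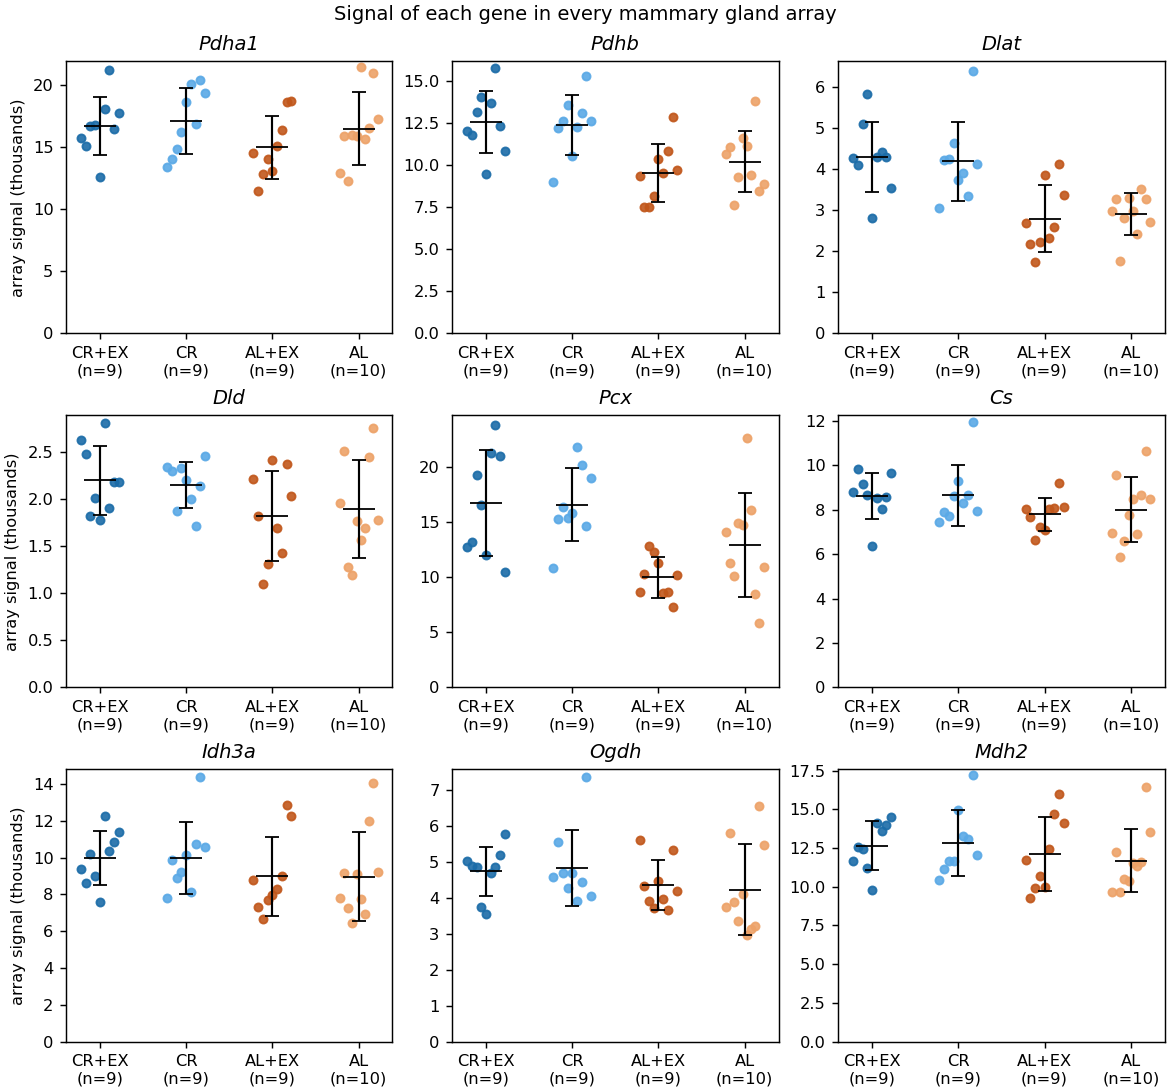
Signal of the brightest probe set of each gene on every array by group (CR+EX, CR, AL+EX, AL); points are animals and bars are the mean ± SD. Dlat shows the clearest shift, with 11 of 18 restricted animals above every unrestricted one, while the groups overlap almost fully for Pdha1 and Mdh2.

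Dlat encodes E2, the core on which the other parts of the complex assemble, and lies at chr9:50634633-50659780 (GRCm38.p6). Its signal was 2810, 4307 and 5819 (lowest, median and highest) in CR+EX and 3050, 4133 and 6399 in CR, against 1746, 2588 and 4123 in AL+EX and 1773, 2979 and 3521 in AL. Both restricted groups stood above both unrestricted groups with partial overlap: all 18 restricted animals lay above the unrestricted median, 0 of 19 unrestricted animals lay above the restricted median, and 10 of the 19 lay below every restricted animal. The rise was 1.5-fold (log2 difference 0.58 ± 0.11, limma adjusted p = 0.000516), which ranked 44 by p among all genes tested. All 3 Dlat probe sets showed it, with differences of 0.58, 0.58 and 0.53, each called in a fit that took every probe set as its own feature (583 of 16972 probe sets higher, 3.44%).

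Pdhb, the beta subunit of E1 (chr14:8165991-8173303), had signals of 9464, 12332 and 15782 in CR+EX and 9003, 12621 and 15309 in CR, against 7516, 9515 and 12863 in AL+EX and 7617, 10041 and 13824 in AL. Most of the range was shared, with 16 of 18 restricted animals above the unrestricted median and 3 above every unrestricted animal. The rise was 1.27-fold (0.34 ± 0.08, limma adjusted p = 0.00613), and the second, dimmer Pdhb probe set gave 0.38 ± 0.10 (limma adjusted p = 0.0138).

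Pdha1, the alpha subunit of E1 and the one that PDH kinases phosphorylate (chrX:160122219-160138430), gave no such reading from its brighter probe set. Signals were 12571, 16664 and 21166 in CR+EX and 13364, 16866 and 20383 in CR, against 11485, 14533 and 18667 in AL+EX and 12248, 15938 and 21417 in AL. The groups overlapped over nearly the whole range (0.11 ± 0.08, 95% interval -0.05 to 0.27, limma adjusted p = 0.445). The second Pdha1 probe set disagreed: it had 5412 to 11401 in CR+EX and 5788 to 11951 in CR, against 3369 to 9748 in AL+EX and 2611 to 9094 in AL, and was called higher (0.52 ± 0.15, limma adjusted p = 0.0302). The 2 probe sets correlated weakly over the 37 arrays (r = 0.248). The second one moved with the Gapdh 3′ to 5′ ratio (r = -0.611, rho = -0.688, permutation adjusted p = 0.0013 over the 22 probe sets, and r = -0.68 without the 2 arrays farthest from the median ratio), and the brighter one less so (r = -0.20, rho = -0.267, permutation adjusted p = 0.52). With group and run means taken out, the second probe set had r = -0.399 (permutation adjusted p = 0.059) and rho = -0.414 (permutation adjusted p = 0.046). Without the 5 arrays with a ratio above 2 its difference was 0.47 ± 0.14 (limma adjusted p = 0.0484), and with the log2 ratio as a covariate 0.43 ± 0.12 (limma adjusted p = 0.0231). With both probe sets averaged, Pdha1 was called (0.31 ± 0.09, limma adjusted p = 0.0312). Which of the 2 probe sets reports the Pdha1 transcript was not tested.

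Dld, whose E3 protein also serves the 2-oxoglutarate and branched-chain dehydrogenases and glycine cleavage (chr12:31331562-31351471), had signals of 1780, 2180 and 2808 in CR+EX and 1714, 2204 and 2464 in CR, against 1095, 1821 and 2414 in AL+EX and 1199, 1773 and 2760 in AL. All but 1 of the 18 restricted animals lay above the unrestricted median, and 8 unrestricted animals lay below every restricted one. The difference was 0.26 ± 0.10 (95% interval 0.05 to 0.47) and did not pass (limma adjusted p = 0.104); with the run as a block it did (0.25 ± 0.09, limma adjusted p = 0.0404).

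By their brightest probe sets, the parts of the complex had estimated differences of unequal size. The ratios below were chosen with earlier results of these data known, and Dlat had the largest difference of the 9 genes. Their p-values are therefore no independent support for unequal change. The second Pdha1 probe set rose by 0.52, beside 0.58 for Dlat. The log2 ratio of Dlat to Pdha1 was -2.002 ± 0.27 in restricted and -2.48 ± 0.29 in unrestricted animals (SD, n = 18 and 19), a difference of 0.48 (permutation adjusted p = 0.0002, two-sided, over 4 ratios). The ratio of Dlat to Pdhb was higher by 0.24 (permutation adjusted p = 0.002) and that of Dlat to Dld by 0.32 (permutation adjusted p = 0.003). With all Pdha1 and Dlat probe sets averaged, the first of these shrank to 0.25 (permutation adjusted p = 0.042). A ratio between probe sets compares their changes and gives no amount of one transcript relative to another. Given how the ratios were chosen, unequal change of the transcripts was not established.

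**Figure D2:**
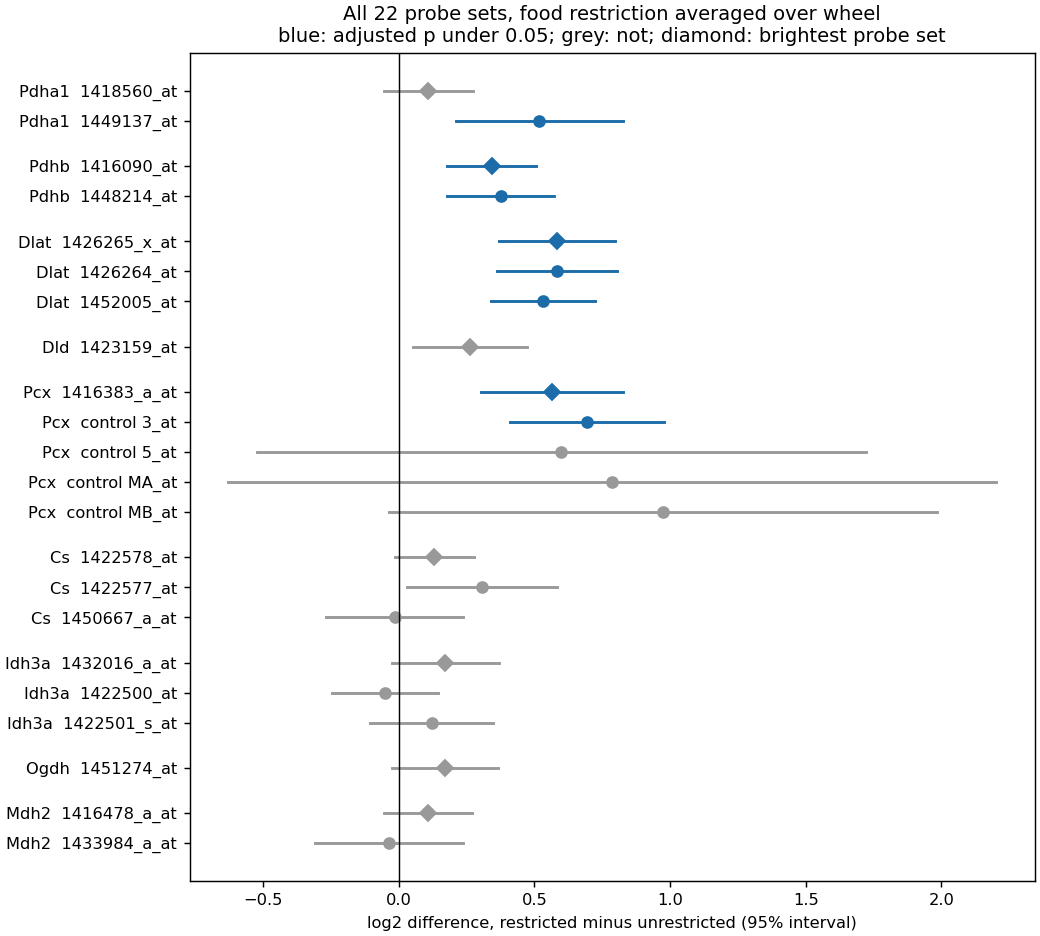
Log2 difference, restricted minus unrestricted, with 95% interval for all 22 probe sets in the fit that took every probe set as its own feature; blue marks an adjusted p under 0.05 and diamonds mark the brightest probe set of each gene. The 3 Dlat and 2 Pdhb probe sets were all called, those of Pdha1 were split, and the Pcx 5′ and middle control probe sets have the widest intervals.

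Pcx (chr19:4510472-4621752) had signals of 10485, 16539 and 23837 in CR+EX and 10888, 15815 and 21858 in CR, against 7276, 10176 and 12831 in AL+EX and 5842, 12693 and 22630 in AL. AL+EX had the lowest median and the narrowest range, 6 of the 9 CR+EX animals stood above every AL+EX animal, and AL spanned nearly the range of the other groups. Of the CR animals, 0 stood above every AL animal, and 1 of the 18 restricted animals stood above every unrestricted one. The rise under restriction was 1.48-fold (0.56 ± 0.13, limma adjusted p = 0.00487). The array also carries 4 Pcx control probe sets. The 3′ one rose by 0.69 ± 0.14 (limma adjusted p = 0.00194). The 5′ one (0.60 ± 0.55) and the middle ones (0.79 ± 0.70 and 0.97 ± 0.50) did not pass. Their signals ran from 51 to 2709 (5′), from 23 to 4416 and from 90.0 to 7219 over the arrays, and the Pcx 3′ to 5′ ratio ran from 3.38 to 115. The 5′ and both middle probe sets fell as the Gapdh ratio rose (r = -0.778, -0.80 and -0.86, rho = -0.796, -0.768 and -0.684, permutation adjusted p = 5.5e-05 each over the 22 probe sets, from the smallest p that 100000 resamples give). With group and run means taken out, r was -0.44, -0.506 and -0.753 (permutation adjusted p = 0.053, 0.028 and 0.00022). The main Pcx probe set gave no such relation over all arrays (r = -0.135, rho = -0.088, permutation adjusted p = 0.73).

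The Pcx difference was 0.24, 0.32, 0.89 and 0.92 in runs 1 to 4, so it was larger in the runs with higher animal numbers. Without the 13 arrays high in B lymphocyte markers, which remove all of run 4, it was 0.38 ± 0.12 and did not pass (limma adjusted p = 0.0615); without those and the arrays with a high Gapdh ratio it was 0.38 ± 0.13 (limma adjusted p = 0.076). Pcx also followed the adipocyte marker level of the glands more closely than any other of the 9 genes. With group and run means taken out, it correlated with the mean of 7 adipocyte markers at r = 0.894 (rho = 0.917, permutation adjusted p = 0.00013 over 81 relations of gene and marker list, r = 0.879 without the 2 arrays farthest from the median). In runs 1 to 4 r was 0.606, 0.89, 0.93 and 0.955. Values of r for single runs, here and below, still hold the group differences. Pcx also went with the basal epithelial markers (r = 0.667, rho = 0.67, permutation adjusted p = 0.00013, and 0.0927 to 0.846 within runs). It ran against the B lymphocyte markers (r = -0.465, rho = -0.462, permutation adjusted p = 0.025, and -0.893 to -0.436 within runs) and the T lymphocyte markers (r = -0.448, rho = -0.478, permutation adjusted p = 0.032). In all, 17 of the 81 relations passed. The summed signal of those adipocyte markers was 64454 to 137359 in restricted and 67200 to 164626 in unrestricted glands, and 1 of the 7, Retn (the adipokine resistin), was called higher (0.64 ± 0.19, limma adjusted p = 0.0331). With the adipocyte mean as a covariate, Pcx had 0.40 ± 0.09 (limma adjusted p = 0.00662). That covariate was chosen after seeing the data and includes Retn. The part of adipocyte content in the Pcx difference was not tested. The ratio of Pcx to Dlat was 1.96 ± 0.38 in restricted and 1.98 ± 0.61 in unrestricted animals (SD, n = 18 and 19, log2), a difference of -0.02 with a standard error of 0.167 (permutation adjusted p = 0.89).

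The 250 bases before the annotated start of Dlat, Pdhb and Pcx are shown, as was planned for genes called under averaged restriction. They are from RefSeq (GRCm38.p6), on the strand of the gene, 5′ to 3′, and Pcx has 2 annotated starts. The windows are chr9:50659781-50660030 (minus strand, Dlat), chr14:8172993-8173242 (minus strand, Pdhb), chr19:4510222-4510471 and chr19:4594069-4594318 (plus strand, Pcx). The Pdhb window precedes the start that RefSeq's promoter table uses, which lies inside the full span of the gene given above.
Dlat: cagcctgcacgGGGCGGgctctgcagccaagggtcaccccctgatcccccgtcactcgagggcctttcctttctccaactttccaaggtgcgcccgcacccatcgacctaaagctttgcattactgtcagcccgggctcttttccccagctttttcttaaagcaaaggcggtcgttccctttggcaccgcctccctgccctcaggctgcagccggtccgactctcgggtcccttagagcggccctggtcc
Pdhb: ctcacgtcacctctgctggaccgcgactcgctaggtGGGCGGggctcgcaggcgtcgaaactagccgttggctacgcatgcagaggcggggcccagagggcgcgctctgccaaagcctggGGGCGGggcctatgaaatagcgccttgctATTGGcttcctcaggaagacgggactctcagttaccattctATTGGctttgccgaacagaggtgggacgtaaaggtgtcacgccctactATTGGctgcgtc
Pcx, first start: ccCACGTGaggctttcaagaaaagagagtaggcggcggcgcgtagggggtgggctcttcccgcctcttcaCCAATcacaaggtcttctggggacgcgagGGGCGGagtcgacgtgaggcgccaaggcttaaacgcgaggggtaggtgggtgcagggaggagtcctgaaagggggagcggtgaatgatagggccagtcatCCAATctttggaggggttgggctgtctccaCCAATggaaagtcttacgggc
Pcx, second start: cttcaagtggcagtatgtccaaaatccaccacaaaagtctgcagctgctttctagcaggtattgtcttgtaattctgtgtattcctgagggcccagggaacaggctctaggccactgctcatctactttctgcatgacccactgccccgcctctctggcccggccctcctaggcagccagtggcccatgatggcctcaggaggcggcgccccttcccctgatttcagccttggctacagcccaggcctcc
Capitals mark matches to motifs looked for on both strands: CACGTG (E-box), TCACNCCAC (sterol response element), TCAAGGTCA (estrogen-related receptor element), GCGCANGC (NRF1 core), CCAAT (NF-Y box, ATTGG on the opposite strand) and GGGCGG (GC box). No match overlapped another. Dlat held 1 GC box. Pdhb held 3 CCAAT boxes, all on the opposite strand, and 2 GC boxes. The first Pcx start held 1 E-box, 3 CCAAT boxes and 1 GC box, and the second none of the motifs. Over all 32851 promoter windows in the table, 33.8% held a CCAAT box, 32.7% a GC box, 8.3% the NRF1 core, 6.0% an E-box, 1.1% the sterol element and 0.4% the estrogen-related receptor element. A match is a description of the letters, and binding was not measured.

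The 4 cycle enzymes did not pass. Cs, citrate synthase, which joins acetyl-CoA to oxaloacetate (chr10:128337727-128362482), had signals of 6353, 8669 and 9827 in CR+EX and 7443, 8294 and 11949 in CR, against 6623, 8020 and 9216 in AL+EX and 5887, 8122 and 10658 in AL (0.13 ± 0.07, 95% interval -0.02 to 0.28, limma adjusted p = 0.269). Idh3a, the catalytic subunit of NAD-dependent isocitrate dehydrogenase (chr9:54586511-54604662), had 7568, 10205 and 12280 in CR+EX and 7830, 9888 and 14415 in CR, against 6654, 8292 and 12876 in AL+EX and 6441, 8458 and 14082 in AL (0.17 ± 0.10, 95% interval -0.03 to 0.37, limma adjusted p = 0.292). The ranges of all 4 groups overlapped for both genes. Ogdh, the E1 part of the 2-oxoglutarate dehydrogenase complex that parallels PDH (chr11:6291597-6359094), had 3556, 4859 and 5784 in CR+EX and 3919, 4586 and 7354 in CR, against 3666, 4186 and 5601 in AL+EX and 2969, 3811 and 6552 in AL (0.17 ± 0.10, 95% interval -0.02 to 0.37, limma adjusted p = 0.28). Mdh2, mitochondrial malate dehydrogenase, which regenerates oxaloacetate (chr5:135778649-135790386), had 9763, 12595 and 14521 in CR+EX and 10432, 12041 and 17192 in CR, against 9276, 11722 and 15971 in AL+EX and 9630, 11424 and 16437 in AL (0.11 ± 0.08, 95% interval -0.06 to 0.27, limma adjusted p = 0.451). The upper bounds of these 4 intervals, from the brightest probe sets, lay below the estimate for Dlat, whose own 95% interval was 0.37 to 0.80. A difference between these genes and Dlat was not tested. Other probe sets of these genes gave 0.31 and -0.01 for Cs, -0.05 and 0.12 for Idh3a and -0.04 for Mdh2, none called. Idh3a passed with the 13 B lymphocyte-rich arrays left out (0.29 ± 0.08, limma adjusted p = 0.0355). The Cs probe set at 0.31 was another that moved with the Gapdh ratio (r = -0.672, rho = -0.651, permutation adjusted p = 5.5e-05). With group and run means taken out that relation did not pass (r = -0.333, permutation adjusted p = 0.12).

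The cycle enzymes moved against the epithelial marker levels of the glands. With group and run means taken out, the mean of 9 luminal epithelial markers correlated negatively with Ogdh (r = -0.72, rho = -0.668, permutation adjusted p = 0.00013), Mdh2 (r = -0.701, rho = -0.628, permutation adjusted p = 0.00013), Idh3a (r = -0.592, rho = -0.616, permutation adjusted p = 0.001) and Cs (r = -0.588, rho = -0.545, permutation adjusted p = 0.0017). For Dld it was r = -0.441 (rho = -0.505, permutation adjusted p = 0.035), for Dlat r = -0.383 (rho = -0.415, permutation adjusted p = 0.069) and for Pdhb r = -0.199 (rho = -0.259, permutation adjusted p = 0.42). Pdha1 had r = -0.394 (rho = -0.412, permutation adjusted p = 0.065), and Pcx had the opposite sign (r = 0.389, rho = 0.377, permutation adjusted p = 0.065). Without the 2 arrays farthest from the median the values for the 4 cycle enzymes lay between -0.597 (Ogdh) and -0.476 (Cs). Within each of the 4 runs, with group differences left in, they lay between -0.971 (Mdh2) and -0.459 (Cs). Idh3a also followed the mean of 6 brown fat markers (r = 0.642, rho = 0.635, permutation adjusted p = 0.00046, and r = 0.56 without those arrays), as did Ogdh (r = 0.463, rho = 0.449, permutation adjusted p = 0.025). Mdh2 followed the skeletal muscle markers (r = 0.505, rho = 0.501, permutation adjusted p = 0.01). All 4 cycle enzymes also ran against the basal epithelial markers, from Mdh2 (r = -0.709, rho = -0.645, permutation adjusted p = 0.00013) and Ogdh (r = -0.659, rho = -0.559, permutation adjusted p = 0.00013) to Cs (r = -0.442, rho = -0.381, permutation adjusted p = 0.034) and Idh3a (r = -0.433, rho = -0.399, permutation adjusted p = 0.036). Within runs, again with group differences left in, those basal relations were uneven, and in run 2 they were 0.0977 for Mdh2 and 0.104 for Ogdh. The luminal markers themselves had a median difference of -0.55 under restriction, with 0 of 9 above 0 and 1 of 9, Wfdc2, called lower (-0.67 ± 0.21, limma adjusted p = 0.041). Their summed signal was 3019 to 20498 in restricted and 3864 to 28776 in unrestricted glands. With the luminal mean as a covariate, Dlat had 0.48 ± 0.10, Pcx 0.67 ± 0.13 and Pdhb 0.31 ± 0.08 (limma adjusted p = 0.00184, 0.000764 and 0.0161). Idh3a had 0.02 ± 0.07 and Mdh2 -0.01 ± 0.06. Because the luminal markers had negative differences under restriction, this covariate can take up part of the restriction difference. The part of epithelial content was not tested for any of these genes. The 12 genes of mitochondrial content and its regulators gave no call, with a median of -0.04.

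**Figure D3:**
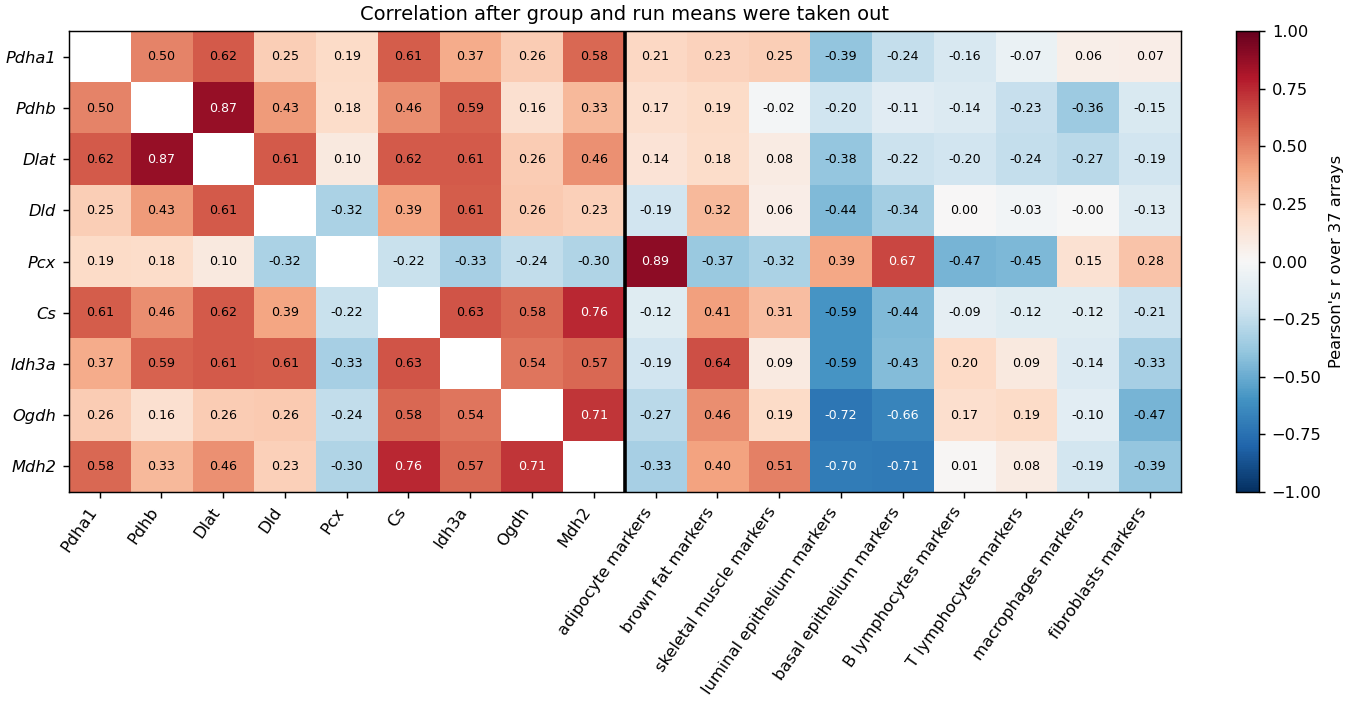
Pearson's r over 37 arrays after group and run means were taken out, for each pair of the 9 genes (left of the line) and for each gene with the mean log2 level of each marker list (right of the line). Dlat and Pdhb form the closest pair (0.87), Pcx stands apart from the other genes and goes with the adipocyte markers (0.89), and Ogdh and Mdh2 run against the epithelial markers.

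Among the 9 genes, 31 of the 36 pairs correlated positively within group and run (median r = 0.444). The closest pair was Dlat and Pdhb (r = 0.868, rho = 0.90, permutation adjusted p = 0.00012 over the 36 pairs). In runs 1 to 4, with group differences left in, their r was 0.935, 0.971, 0.835 and 0.919. Cs and Mdh2 followed (r = 0.755, rho = 0.724, permutation adjusted p = 0.00012). Pcx gave all 5 negative pairs, the lowest with Idh3a (r = -0.332, rho = -0.31, permutation adjusted p = 0.074). Of all genes tested, those most like Dlat were Pdhb, Pygl (liver glycogen phosphorylase, r = 0.808, rho = 0.835) and Abcd3 (a peroxisomal fatty acid transporter, r = 0.801, rho = 0.816). Those most like Pdhb were Dlat, Tkt (transketolase of the pentose phosphate pathway, r = 0.80, rho = 0.788) and Pygl (r = 0.725, rho = 0.731). Those most like Pcx were Mmd (r = 0.843, rho = 0.833), Retn (r = 0.842, rho = 0.84) and Ccnd2 (cyclin D2, r = 0.83, rho = 0.87). The likeness was taken over 37 arrays with group and run means taken out.

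Within single wheel states there were fewer calls. Without wheels (CR against AL), all 9 differences were positive (0.06 to 0.52, median 0.22) and 0 of 9 passed, against 0.204% of all genes called higher. At an unadjusted p under 0.05 there were 3 of the 9, beside 1386 of the 9295 genes tested. Of all genes, 43.1% had a positive difference in CR against AL. Dlat had 0.52 ± 0.15 (limma adjusted p = 0.0739), Pcx 0.42 ± 0.18 (limma adjusted p = 0.263) and Pdhb 0.28 ± 0.11 (limma adjusted p = 0.223). The Pcx difference was 0.18 with the 13 B lymphocyte-rich arrays left out, and 0.04 when the arrays with a high Gapdh ratio were left out too. Dlat passed with the run as a block (0.52, limma adjusted p = 0.0272), with all probe sets of a gene averaged (0.53, limma adjusted p = 0.0418), and without CR replicate 1. With wheels (CR+EX against AL+EX), all 9 were again positive (0.08 to 0.71, median 0.17), beside 46.6% of all genes. Of the 9, 2 were called higher, against 0.85% of all genes. These were Dlat (1.57-fold, 0.65 ± 0.15, limma adjusted p = 0.019) and Pcx (1.63-fold, 0.71 ± 0.19, limma adjusted p = 0.0381). Pdhb had 0.40 ± 0.12 and did not pass (limma adjusted p = 0.0618), but passed with the run as a block (0.40 ± 0.11, limma adjusted p = 0.0217), with probe sets averaged (0.41 ± 0.11, limma adjusted p = 0.0476), with the B lymphocyte-rich arrays left out (0.54 ± 0.12, limma adjusted p = 0.0355) and without both kinds of arrays (0.57 ± 0.14, limma adjusted p = 0.0473). Pcx did not pass with the B lymphocyte-rich arrays left out (0.58 ± 0.17, limma adjusted p = 0.105) and passed without both kinds (0.72 ± 0.18, limma adjusted p = 0.0449). The count fell to 0 without CR+EX replicate 3 or replicate 4, and to 1 (Dlat) without AL+EX replicate 1, 2, 6, 7 or 9 or CR+EX replicate 6, 7 or 8. The adjustment runs over all genes tested, so such counts can move with the calls over all genes. The numbers of all genes called in those fits are not given here.

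The difference with wheels was uneven between runs. For Dlat, CR+EX minus AL+EX was 0.79, 0.82, 0.82 and 0.07 in runs 1 to 4, and CR minus AL was 0.20, 0.80, 0.31 and 0.78, each from 2 or 3 arrays a group. For Pdhb the same values were 0.50, 0.49, 0.53 and 0.05 with wheels and -0.05, 0.48, 0.08 and 0.68 without. Averaged over wheel state, the differences were 0.49, 0.81, 0.57 and 0.43 for Dlat and 0.23, 0.48, 0.31 and 0.36 for Pdhb, positive in every run. In run 4 the values of Pdha1, Idh3a and Mdh2 were below 0 (-0.03, -0.03 and -0.06). The run held most of the spread of Pdha1 (a share of 0.562 of its variance) and Mdh2 (0.626), and little of that of Dlat (0.0567) and Pdhb (0.085), where the group held 0.473 and 0.378.

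**Figure D4:**
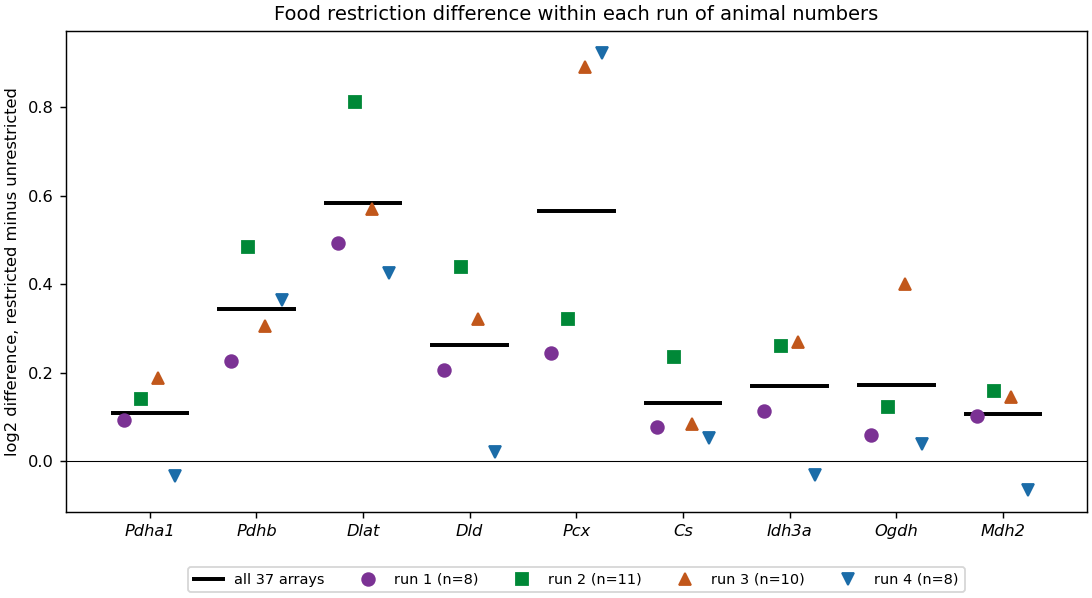
Log2 difference, restricted minus unrestricted and averaged over wheel state, within each of the 4 runs of animal numbers (symbols) and over all 37 arrays (black bars). Dlat, Pdhb and Pcx are above 0 in every run, Pcx is highest in runs 3 and 4, and Pdha1, Idh3a and Mdh2 are below 0 in run 4.

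The wheel gave no call on any gene of the array. In AL+EX against AL, 0 of the 9 genes passed, as did 0.0% of all genes, with 600 genes at an unadjusted p under 0.05. The 9 differences ran from -0.30 to 0.08, and the lowest was Pcx (-0.30 ± 0.18, 95% interval -0.67 to 0.06, limma adjusted p = 0.776). That Pcx value was -0.48 with the B lymphocyte-rich arrays left out, -0.62 without both kinds of arrays and -0.13 with the adipocyte covariate. In CR+EX against CR, 0 of 9 and again 0.0% of all genes passed (83 genes unadjusted), and the 9 differences lay between -0.03 and 0.04. For Dlat the 95% interval was -0.27 to 0.35 there. The wheel averaged over diet (0 of 9, 0.0% of all genes, 266 unadjusted) ranged from -0.16 to 0.03 over the 9 genes. The interaction of restriction and wheel (0 of 9, 0.0% of all genes, 295 unadjusted) was 0.13 ± 0.21 for Dlat, 0.12 ± 0.16 for Pdhb and 0.29 ± 0.26 for Pcx, so a difference between wheel states in the response to restriction was not detectable.

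Across diet and wheel together, CR+EX against AL gave 0 of 9 called, against 0.323% of all genes higher, with Dlat at 0.56 ± 0.15 (limma adjusted p = 0.0577) and Pcx at 0.40 ± 0.18 (limma adjusted p = 0.325). Pcx had 0.11 with the B lymphocyte-rich arrays left out and 0.10 without both kinds of arrays. Dlat passed there with the run as a block (limma adjusted p = 0.0243), and without AL+EX replicate 3, 5 or 8, CR replicate 8 or CR+EX replicate 5, each giving 1 of 9. CR against AL+EX gave 2 of 9, against 0.968% of all genes higher: Dlat (0.61 ± 0.15, limma adjusted p = 0.0268) and Pcx (0.73 ± 0.19, limma adjusted p = 0.0314). With the run as a block Pdhb was called too (0.36 ± 0.11, limma adjusted p = 0.0358). That count was 0 without AL+EX replicate 6 or 7 and with the 13 B lymphocyte-rich arrays left out, and 1 without AL+EX replicate 1, 2 or 4 or any 1 of CR replicates 4 to 9. These comparisons share animals with those above, and the same limit holds for their counts.

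Other genes around the same reactions were read from 9 lists of 79 genes, of which 64 were tested. The lists were chosen with earlier results of these data known, so their counts are no independent support. Under restriction averaged over wheel state, 12 of the 64 rose and none fell, against the 4.19% and 4.56% of all genes given above, with a median of 0.112. With the run as a block 19 rose, but the shares of all genes are from the fit without the block and do not apply to that count. The list with most calls was citrate export and pyruvate cycling, 4 of 6. There Me1, the cytosolic malic enzyme that makes NADPH and returns pyruvate, rose 2.03-fold (1.02 ± 0.14, limma adjusted p = 5.88e-06), and Acly, which splits exported citrate into acetyl-CoA and oxaloacetate, rose 1.84-fold (0.88 ± 0.14, limma adjusted p = 0.000104). Me1 also passed in CR against AL (0.94 ± 0.19, limma adjusted p = 0.0167), and both passed in CR+EX against AL+EX (Me1 1.11 ± 0.20 and Acly 1.07 ± 0.20, limma adjusted p = 0.00217 and 0.0039).

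Of 3 PDH kinases tested, which switch the complex off by phosphorylating E1, 1 passed: Pdk1 rose 1.45-fold (0.53 ± 0.11, limma adjusted p = 0.00162), and also in CR+EX against AL+EX (0.62 ± 0.15, limma adjusted p = 0.0265). No PDH phosphatase and neither other subunit of the complex was among the genes tested. Mpc1, a subunit of the carrier that brings pyruvate into the mitochondrion, rose 1.30-fold (0.38 ± 0.08, limma adjusted p = 0.00226), and in CR+EX against AL+EX by 0.41 ± 0.11 (limma adjusted p = 0.048). The other TCA cycle genes gave 1 of 14, Sdhd, a membrane anchor of succinate dehydrogenase (0.31 ± 0.10, limma adjusted p = 0.0353), which did not pass with all its probe sets averaged (0.14, limma adjusted p = 0.313).

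Of the other entry and exit points, 2 of 13 rose: Gpt, an alanine aminotransferase that makes pyruvate (0.57 ± 0.14, limma adjusted p = 0.00734), and Pccb, a subunit of propionyl-CoA carboxylase (0.27 ± 0.08, limma adjusted p = 0.0393). Pccb passed in 14 of 18 alternative settings. In the list of lipoate and biotin attachment and use 3 of 8 rose, among them Mccc1 (a biotin carboxylase of leucine breakdown, 0.27 ± 0.06, limma adjusted p = 0.00742) and Acacb (acetyl-CoA carboxylase beta, 0.39 ± 0.11, limma adjusted p = 0.019). The other 2-oxo acid dehydrogenases gave 0 of 5 (lowest p for Bckdk, the kinase of the branched-chain complex, 0.21 ± 0.08, limma adjusted p = 0.0958), and mitochondrial content 0 of 12 (lowest p for Tfam, which packages mitochondrial DNA, -0.21 ± 0.07, limma adjusted p = 0.0602).

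**Figure D5:**
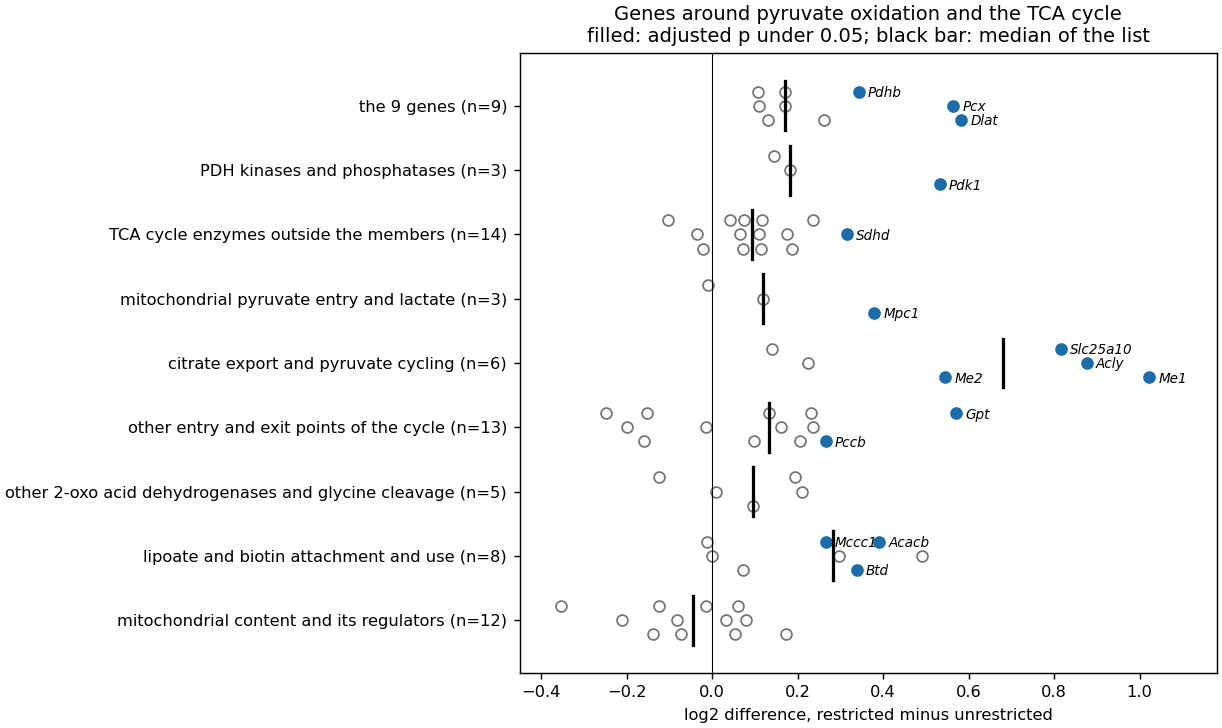
Log2 difference, restricted minus unrestricted and averaged over wheel state, of the 9 genes (top) and of the tested genes in 8 lists around them; filled and named points passed an adjusted p of 0.05 and black bars are list medians. Filled points lie to the right of 0 in every list that has any, and the list of citrate export and pyruvate cycling lies farthest right.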

How the data were processed

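Values were Affymetrix signal intensities, deposited by the authors on a linear scale and scaled to a trimmed mean between 500.165 and 500.23 on every array. The submitters' processing notes name GCOS version 1. The signal algorithm is not given in the sources used here, and the number of arrays limits the precision. Signals were used as log2(signal + 16), with the brightest probe set per gene, and the lowest 25% of genes were left out, which left 9295. Group means were fitted to 37 arrays with limma 3.58.1 in R 4.3.3 (empirical Bayes with trend, two-sided, Benjamini-Hochberg). The script was tested on simulated data. Ratios and correlations used permutation tests with 100000 resamples (NumPy 2.4.6). Where group and run means were taken out, the remainders were permuted freely over the 37 arrays. No allowance was made for the means removed, so those p-values can be too small. Gene names came from the platform annotation through Entrez IDs, and positions and promoters from RefSeq. Runs are every 24 animal numbers, and the labels do not call them batches. Named are the 9 genes, up to 2 risen and 2 fallen genes of each list (otherwise the smallest p), and the 3 genes most like each called gene. Retn, Wfdc2 and single marker genes were named after their values were seen. Members, lists and the 4 ratios were chosen with earlier results of these data known. Adipocyte, luminal and Gapdh ratio covariates were chosen after seeing the data.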

Additional observations from a re-analysis of the deposited data

Results flagged for a closer look

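Of 36 sets of values (9 genes in 4 groups), 2 had an animal set far apart from its group by Dixon's criterion at the 95% level, and chance flags about 1 in 20. Both were Cs. In CR+EX, replicate 5 had a signal of 6352.6, the lowest of its group. In CR, replicate 8 had 11949.2, the highest of its group. That CR array, from run 4, also had the highest signal of all 37 arrays for Dlat, Idh3a, Ogdh and Mdh2, 5 of the 9 genes with Cs. It had the lowest summed luminal epithelial signal (3019) and the highest summed brown fat signal (83627) of the arrays. The part of either in its Cs signal was not tested. Dlat, Pdhb and Pcx were each called under averaged restriction in all 37 fits that left out 1 array.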

How the results depend on the processing

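Under averaged restriction, Dlat (0.48 to 0.66) and Pdhb (0.30 to 0.42) passed in all 18 alternative settings, and Pcx (0.38 to 0.67) in 16. Leaving out each array in turn gave 3 of 9 called throughout and a median difference of 0.136 to 0.209. Over the same fits the counts were 0 to 1 for CR against AL, 0 to 3 for CR+EX against AL+EX, 0 to 1 for CR+EX against AL, 0 to 3 for CR against AL+EX, and 8 to 14 for listed genes called higher. The count for CR+EX against AL+EX was 1 after quantile normalization, with no filter on dim genes, and with the skeletal muscle or adipocyte mean as a covariate. It was 3 (with Pdhb) with the lowest 50% of genes left out, with probe sets averaged, with the run as a block and without both kinds of doubtful arrays, and with the B lymphocyte-rich arrays left out the 2 called were Dlat and Pdhb. For CR against AL+EX it was 3 with the run as a block, 1 after quantile normalization, and 0 with the B lymphocyte-rich arrays left out, without both kinds of doubtful arrays, and with the adipocyte covariate. For CR+EX against AL it was 1 with the lowest 50% of genes left out, with probe sets averaged, with the run as a block and with the muscle covariate. For CR against AL it was 1 with probe sets averaged and with the run as a block. With that block 19 listed genes were higher. The counts in this section stand without the number of all genes called in the same fit, with which they can move. Small differences turned sign: Mdh2 with probe sets averaged (-0.01283 in CR+EX against AL+EX), Pdha1 without both kinds of arrays (-0.03843 in CR against AL), and, with the luminal covariate, Mdh2 (-0.01288 averaged, -0.001143 in CR against AL, -0.02461 in CR+EX against AL+EX) and Pdha1 (-0.05034 in CR against AL). The causes were not tested, apart from fewer arrays or genes where a setting removes them. For the wheel comparisons and the interaction, 0 of the 9 genes were called in any setting. No paired analysis was possible because the labels give no replicate numbers shared between groups.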
